A study of Mus musculus with 6 samples.

Results

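The adult globin genes Hbb-bs, Hbb-bt, Hba-a1 and Hba-a2 were described in bulk RNA-seq of LT-HSCs, the long-term stem cells of the bone marrow from which all blood lineages derive. The 4 genes were taken by symbol from tables of 47561 rows per library, and all 4 were present. They were chosen by their share of the counts, which had differed between the groups in these libraries, so their levels in the groups are a description, and the calls printed for them once, beside the share of all genes called, are no evidence of a difference. The cells came from mice labelled Piezo1 KO in the sample titles (3 libraries), and from control mice of genotype WT (3 libraries). Piezo1 encodes an ion channel that opens when the membrane is stretched and lets calcium in. The genotype field reads Piezo1, Piezo2 and Piezo3 knockout for KO replicates 1, 2 and 3, and the groups follow the titles. Strain, age, the deleted exons and any Cre driver are not given in the sources used here, nor whether each library stands for its own mouse, so a p-value speaks only of how far these libraries spread, in part perhaps for technical reasons.

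Hemoglobin carries oxygen in red cells and is a tetramer of a pair of alpha chains and a pair of beta chains, each holding a heme. The chains are made from different chromosomes and have to be matched, since unpaired alpha chains precipitate and damage the cell. Globin transcription rises steeply as erythroid precursors mature, after the regulators GATA1 and KLF1 have acted, and reticulocytes are filled with globin mRNA. Stem cells are not known for making hemoglobin.

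The alpha pair lies on chromosome 11 and the beta pair on chromosome 7. In the GENCODE annotation of GRCm38, Hba-a1 spans chr11:32283511-32284465 and Hba-a2 chr11:32296489-32297298 on the plus strand. Hbb-bs spans chr7:103826534-103827928 and Hbb-bt chr7:103812524-103813996 on the minus strand. Each has 3 exons. The stretches of coding sequence below show how little separates the copies. Bases 351 to 411 of the alpha pair and 387 to 444 of the beta pair are printed, counted from 1 at the A of the start codon, and the capital marks the only coding base at which the members of a pair differ.
Hba-a1: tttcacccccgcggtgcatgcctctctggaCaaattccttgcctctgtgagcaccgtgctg
Hba-a2: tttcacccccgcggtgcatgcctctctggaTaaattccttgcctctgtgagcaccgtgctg
Hbb-bs: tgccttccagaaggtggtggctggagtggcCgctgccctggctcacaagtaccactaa
Hbb-bt: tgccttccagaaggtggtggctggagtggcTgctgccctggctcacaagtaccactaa

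The difference was C381T from Hba-a1 to Hba-a2, in 429 coding bases, and C417T from Hbb-bs to Hbb-bt, in 444. Both left the translation the same. Of the 100-base windows of the Hba-a2 transcript, 74.5% occurred unchanged in Hba-a1, and 54.8% of those of Hbb-bt occurred in Hbb-bs. No 100-base window was shared by Hba-a1 and Hbb-bs. Whether reads matching both copies were counted, split or dropped is stated by none of the sources. If they were counted or split, the sum over a pair is firmer than the value of either copy. If they were dropped, the sum lacks them too, and alpha and beta may have lost unlike parts. Reads of alpha and beta can be told apart.

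The sequences upstream of the start sites are shown because the 4 genes moved together across the libraries. They come from the RefSeq promoter table of GRCm38.p6, which held all 4 genes and whose windows hold 250 bases before its own start site. GENCODE starts some transcripts earlier, so that 161 of those bases in Hba-a1, 73 in Hbb-bt and 3 in Hba-a2 lie inside the GENCODE span. Printed are only bases outside it, 247 for Hba-a2, 250 for Hbb-bs and 175 for Hbb-bt, which was ended before a motif that crosses the edge. Capitals mark matches on either strand to 4 motifs. These were CACCC, the core bound by KLF1-type factors, GATAA, a core of GATA factor sites, and the general promoter elements known as the CCAAT box and the TATAA box.
Hba-a2, chr11:32296242-32296488, plus strand: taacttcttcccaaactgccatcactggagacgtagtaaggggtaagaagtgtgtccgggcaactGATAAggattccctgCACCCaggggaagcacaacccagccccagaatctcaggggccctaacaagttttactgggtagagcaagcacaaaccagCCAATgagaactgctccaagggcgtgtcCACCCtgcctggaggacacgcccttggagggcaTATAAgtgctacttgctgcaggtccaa
Hbb-bs, chr7:103827929-103828178, minus strand: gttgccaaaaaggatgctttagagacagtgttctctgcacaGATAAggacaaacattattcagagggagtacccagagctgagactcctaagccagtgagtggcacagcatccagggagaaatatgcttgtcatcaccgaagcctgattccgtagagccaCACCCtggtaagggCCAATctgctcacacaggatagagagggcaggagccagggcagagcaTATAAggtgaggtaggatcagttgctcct
Hbb-bt, chr7:103813999-103814173, minus strand: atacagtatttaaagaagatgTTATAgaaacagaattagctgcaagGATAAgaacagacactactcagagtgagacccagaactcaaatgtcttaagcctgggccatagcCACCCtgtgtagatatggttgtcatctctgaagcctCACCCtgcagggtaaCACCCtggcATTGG

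Comparisons and motif counts used the table's whole windows, 300 bases long and reaching 50 bases past its start site. The Hba-a1 and Hba-a2 windows were identical at 297 of 297 aligned bases, at an offset of 3. The beta pair matched at 168 of 299 bases without gaps, 56.2%. All 4 windows held each of the 4 motifs, and no matches overlapped, though a reverse and a forward CCAAT match abut in Hbb-bt. Of all 32851 such windows, 57.5% held CACCC, 37.4% CCAAT, 25.4% GATAA and 24.9% TATAA, and 1.51% held all 4. Hbb-bt had 3 CACCC and 3 CCAAT matches against 1 each in Hbb-bs, and Hba-a1 and Hba-a2 had 2 CACCC and 1 CCAAT match each. A match describes the letters and does not show binding.

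Library totals lay between 59435258 and 64653956 counts, and 16022 genes were tested. All 12 LT-HSC markers on the list used here were tested, and their summed level was 1134 to 1402 CPM in KO and 1164 to 1572 CPM in control libraries, where CPM is the count divided by the library total, as scaled by trimmed means (TMM), times 1e6. The sum hides shifts of single markers, of which 5 had a positive and 7 a negative log2 fold change (52.15% of all genes positive). Procr, picked after its values were seen, had 9.68, 26.7 and 4.99 CPM in KO, against 67.1, 56.5 and 22.6 CPM in control libraries. Kit and Ly6a are given beside the marker lists. Piezo1 had 4.28, 7.99 and 9.46 CPM in KO against 16.95, 7.02 and 24.3 CPM in control libraries, with a log2 fold change of -1.15 (SE 0.56) and an edgeR quasi-likelihood adjusted p = 0.508. The libraries labelled KO replicates 2 and 3 thus lay above the library labelled control replicate 2. If only some exons were removed, a total over the gene need not show it. Control replicate 3 stood apart in neutrophil transcripts, with values given beside the marker lists.

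Adult globins took 2.43%, 0.929% and 0.741% of all counts in KO replicates 1, 2 and 3, against 0.0274%, 0.131% and 0.352% in control replicates 1, 2 and 3. The groups did not overlap, and the lowest KO library held 2.105 times the share of the highest control library. Exact binomial 95% intervals were narrow (2.42% to 2.43% in KO replicate 1, 0.0270% to 0.0278% in control replicate 1), but they cover counting error only. The spread between libraries was far wider. The highest KO library held 3.28 times the lowest, the highest control library 12.8 times the lowest, and the whole range was 88.6-fold. On average the share was 1.37 ± 0.924% in KO and 0.170 ± 0.166% in control libraries (SD, n = 3 each), a ratio of 8.03. That ratio leaned on single libraries. It was 4.91 without KO replicate 1, 5.66 without control replicate 1 and 17.2 without control replicate 3. In bulk RNA, a change in the number of globin-bearing cells and a change in globin RNA per cell cannot be told apart.

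**Figure D1:**
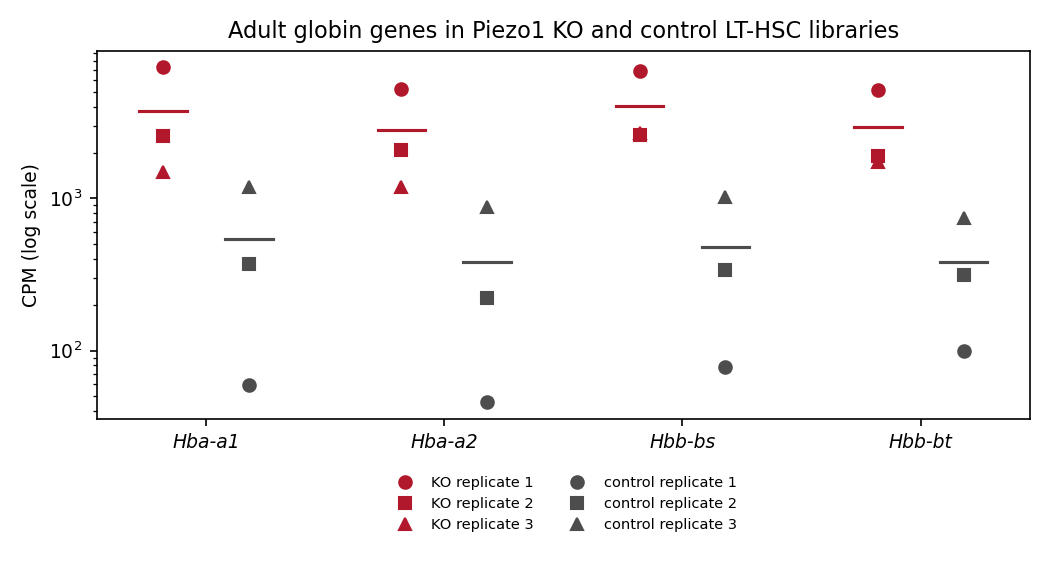
CPM of the 4 adult globin genes on a log axis, with 1 point per library, marker shapes for replicates 1 to 3 and a line at each group mean. For every gene the 3 KO libraries sit above the 3 control libraries, and within each group the replicates keep nearly the same order across the genes.

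Among the alpha genes, Hba-a1 had 7240, 2581 and 1482 CPM in KO replicates 1, 2 and 3, against 59.5, 370 and 1194 CPM in control replicates 1, 2 and 3. Its highest control library thus came close to its lowest KO library. Its log2 fold change (KO over control) came to 2.80 (SE 1.04). Hba-a2 had 5207, 2090 and 1196 CPM in KO, against 46.1, 221 and 878 CPM in control libraries. Its log2 fold change was 2.89 (SE 1.03). For both alpha genes KO replicate 1 was the highest library and control replicate 1 the lowest.

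Among the beta genes, Hbb-bs had 6835, 2606 and 2676 CPM in KO, against 77.8, 338 and 1019 CPM in control libraries. The gap between the groups was wider than for the alpha genes, since KO replicates 2 and 3 were level. The log2 fold change was 3.08 (SE 0.89). Hbb-bt had 5146, 1896 and 1727 CPM in KO, against 98.8, 312 and 739 CPM in control libraries. Its log2 fold change was 2.93 (SE 0.77). Summed over the copies, the alpha pair averaged 6598 ± 5162 CPM in KO libraries and 923 ± 1025 CPM in controls, and the beta pair 6962 ± 4347 and 861 ± 812 CPM (SD, n = 3 each). The fitted log2 fold changes were 2.84 (SE 1.04) for alpha and 3.01 (SE 0.83) for beta.

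By mean CPM among the 16022 tested genes, Hbb-bs ranked 12, Hba-a1 16, Hbb-bt 29 and Hba-a2 32 in KO libraries. In control libraries the ranks were 294, 252, 398 and 400 in the same order of genes. At an adjusted p under 0.05 in edgeR's quasi-likelihood test, 0 of the 4 genes passed, as did 0% of all genes tested. At an unadjusted p under 0.05 all 4 were higher in KO, where 5.44% of all tested genes were higher. DESeq2 called 2 of the 4 higher (Hbb-bs and Hbb-bt), against backgrounds of 1.52% higher and 1.79% lower, and limma-voom called 0 of the 4. In 10.7% of tested genes every KO library lay above every control library, as in all 4 globin genes, and in 8.76% every KO library lay below. These counts come from the contrast by which the genes had been chosen, and nothing is read from them.

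The 4 genes were also compared with each other inside each library. Per kilobase of coding length, the highest member exceeded the lowest 1.46, 1.41 and 2.16 times in KO replicates 1, 2 and 3, and 2.07, 1.67 and 1.67 times in control replicates 1, 2 and 3. The order was Hba-a1, Hbb-bs, Hba-a2, Hbb-bt from high to low in KO replicates 1 and 2 and in control replicate 3. In KO replicate 3 Hbb-bs was first and Hbb-bt second, and in control replicate 1 Hbb-bt was first and Hbb-bs second. Control replicate 2 had Hba-a1 first and Hba-a2 last. Hba-a1 exceeded Hba-a2 in 6 of 6 libraries, by 1.24 to 1.67 times, and Hbb-bs exceeded Hbb-bt in 5 of 6, at ratios of 0.787 to 1.55. The order of alpha against beta genes varied between libraries, and no difference between neighbours was tested. The order also depended on the length used, because the annotated transcripts run from 554 bases for Hba-a2 to 703 for Hbb-bt, and per kilobase of transcript Hbb-bs came first in KO replicates 1 and 2 and in control replicate 2. On that scale Hba-a2 also lay slightly above Hba-a1 in KO replicate 2 (3768 against 3688 CPM per kilobase) and KO replicate 3 (2156 against 2118).

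The balance of alpha to beta compares the chains within a library. Its level is uncertain, since reads matching both copies of a pair may have been dropped, in unlike parts for alpha and beta. Its tests were set with earlier results of these data known. In counts, alpha over beta was 1.04, 1.04 and 0.608 in KO replicates 1, 2 and 3, against 0.598, 0.911 and 1.18 in control replicates 1, 2 and 3. Per base of coding length the values were 1.08, 1.07 and 0.629 in KO, against 0.619, 0.943 and 1.22 in control libraries. The groups overlapped over almost their whole range. On the log2 scale the ratio averaged -0.20 ± 0.45 in KO and -0.21 ± 0.49 in control libraries (SD, n = 3 each), a difference of 0.010 with an exact two-sided permutation p = 0.9. Alpha was short in KO replicate 3 and in control replicate 1, which hold 441616 and 17096 globin counts, and in excess in control replicate 3 with 213128. In each group the library with the least globin had the lowest ratio, while KO replicate 3 still held more globin than any control library. With 3 against 3 libraries this exact permutation test cannot go below p = 0.10, so no difference of any size could have passed 0.05.

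**Figure D2:**
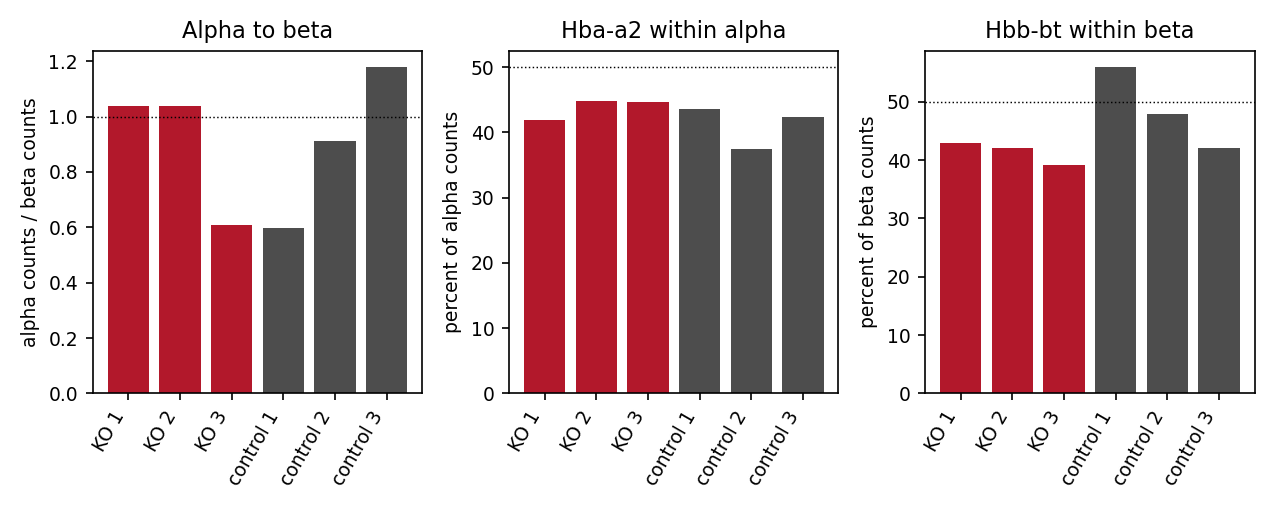
Alpha counts over beta counts (left), Hba-a2 as a percent of alpha counts (middle) and Hbb-bt as a percent of beta counts (right), with 1 bar per library and dotted lines at 1 and at 50%. KO replicate 3 and control replicate 1 have the low alpha to beta ratios, 0.608 and 0.598, and control replicate 1 has the highest Hbb-bt share, 56.0%.

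Within the alpha pair, Hba-a2 took 41.8%, 44.7% and 44.7% of the counts in KO replicates 1, 2 and 3, against 43.6%, 37.4% and 42.4% in control replicates 1, 2 and 3. The mean difference was 2.60 percentage points, KO minus control, with an exact permutation p = 0.300. Control replicate 2 alone had a share under 40%, and without it the difference was 0.739 points. Within the beta pair, Hbb-bt took 43.0%, 42.1% and 39.2% in KO, against 56.0%, 48.0% and 42.0% in control libraries. The mean was 41.4 ± 1.96% in KO and 48.7 ± 6.99% in control libraries (SD, n = 3 each), a difference of -7.22 points with an exact permutation p = 0.300. Control replicate 3 lay inside the KO range, and without control replicate 1 the difference was -3.57 points. Adjusted over the 3 balance measures, the p-values were 0.9, 0.450 and 0.450, and the lowest p the design allows, 0.10, lies above 0.05, so they decide nothing.

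The Hbb-bt share ran against the globin level in the control group. It was 56.0% (exact binomial 95% interval 55.0% to 56.9%) in control replicate 1, where globins were scarcest, and 42.0% (41.7% to 42.3%) in control replicate 3, where they were most abundant. In the KO group KO replicate 1, with the most globin, had the highest Hbb-bt share. As the copies differ at 1 coding base, only reads over that base or over the less alike untranslated ends can tell them apart. How reads matching both copies were counted is not stated, so these shares are uncertain.

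Embryonic and minor globin genes were scarce in every library. Of 10 such genes on the list, 6 were in the tables and 3 were tested. Hbb-y, the embryonic epsilon-type beta gene, had 1.14, 0.299 and 0.273 CPM in KO, against 0, 0.0147 and 0.144 CPM in control libraries. The count in control replicate 1 was 0, which allows up to 0.0495 CPM. KO lay above control in Hbb-y, at levels far under those of the adult genes. Hbb-bh1, another embryonic beta-type gene, had 62, 0 and 17 counts in KO and 0 in each control library. Hbb-bh2 had 122 counts in KO replicate 1 and 0 in the other libraries, and Hba-x, the embryonic zeta-type alpha gene, had 137 counts in control replicate 2 and 0 in the others. Hbq1b, a theta-type gene in the alpha cluster, overlapped between the groups with 4.41, 0.349 and 0 CPM in KO, against 0.512, 1.07 and 4.91 CPM in control libraries. Its neighbour Hbq1a had 0.403, 0 and 0 CPM in KO, against 1.67, 0.161 and 0 CPM in control libraries. Values this low in genes that resemble the adult ones are uncertain. At an unadjusted p under 0.05, 0 of the 3 tested genes passed. DESeq2 gave an adjusted p for 1 of them, which it did not call, and none for the other 2.

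Genes of heme synthesis and the alpha-globin chaperone showed no common direction. Of 14 genes on this list, all 14 were tested, 6 had a positive and 8 a negative log2 fold change, and the median was -0.17, beside 0.03 over all tested genes, of which 52.15% were positive. At an unadjusted p under 0.05, 0 were higher and 1 lower, against backgrounds of 5.44% higher and 5.59% lower. None passed at an adjusted p under 0.05 in edgeR or in DESeq2. Ahsp, whose protein binds free alpha chains, had 631, 272 and 134 CPM in KO, against 265, 235 and 628 CPM in control libraries. KO replicate 1 and control replicate 3 were level at the top, and the log2 fold change was -0.12 (SE 0.60, edgeR adjusted p = 0.973). Alad, an enzyme of heme synthesis, was the lower member, with 149, 120 and 105 CPM in KO, against 194, 170 and 176 CPM in control libraries. Its log2 fold change was -0.53 (SE 0.18, edgeR adjusted p = 0.368).

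Values of the other named heme genes overlapped between the groups. Urod averaged 160 ± 43.1 CPM in KO libraries and 186 ± 11.2 CPM in controls, and Fech, which inserts the iron, 67.8 ± 19.6 CPM in KO libraries and 90.9 ± 17.8 CPM in controls (SD, n = 3 each). Tmem14c, a carrier of heme precursors into mitochondria, averaged 312 ± 90.8 CPM in KO libraries and 303 ± 79.6 CPM in controls. Slc25a37, the mitochondrial iron importer mitoferrin-1, averaged 78.6 ± 27.9 CPM in KO libraries and 52.1 ± 19.0 CPM in controls. Alas2, the erythroid enzyme that starts heme synthesis, was picked after its values were seen. It had 58.1, 18.4 and 3.45 CPM in KO, against 0, 13.3 and 3.90 CPM in control libraries. The 0 in control replicate 1, the library lowest in globin, allows up to 0.0495 CPM, and KO replicate 3 lay under 2 of the control libraries. The log2 fold change of Alas2 was 2.21 (SE 1.67, edgeR adjusted p = 0.709).

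Genes of the red cell membrane and red cell enzymes had mostly positive log2 fold changes, though the most abundant ones did not. All 21 were tested, 16 had a positive and 5 a negative log2 fold change, with a median of 0.44, beside 52.15% positive and 0.03 over all genes. Unadjusted p-values under 0.05 put 2 on the higher and 2 on the lower side (5.44% and 5.59% of all genes), and 0 passed at an adjusted p under 0.05 in edgeR or in DESeq2. The abundant carbonic anhydrases were on the lower side. Car1 had 1595, 697 and 1057 CPM in KO, against 3070, 1186 and 3524 CPM in control libraries, and Car2 2266, 1474 and 1160 CPM in KO, against 2857, 2345 and 2640 CPM. Their log2 fold changes were -1.22 (SE 0.45) and -0.68 (SE 0.25), with edgeR adjusted p = 0.397 for each. Control replicate 1, with the least globin of all libraries, thus had more Car1 than any KO library.

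Epb41, protein 4.1 of the membrane skeleton, had 59.7, 66.5 and 61.7 CPM in KO, against 41.1, 42.4 and 42.4 CPM in control libraries. Its log2 fold change was 0.58 (SE 0.17, edgeR adjusted p = 0.317). Icam4, the other gene higher at an unadjusted p under 0.05, is named after its values were seen. It had 83.4, 76.8 and 82.9 CPM in KO, against 65.0, 41.6 and 58.2 CPM in control libraries. The blood group genes Rhd and Ermap averaged 65.3 ± 51.8 and 73.9 ± 28.6 CPM in KO and 91.8 ± 21.7 and 71.3 ± 35.1 CPM in control libraries. The water channel gene Aqp1 averaged 80.3 ± 29.6 CPM in KO libraries and 58.7 ± 25.3 CPM in controls, and Gypc, glycophorin C, 66.1 ± 6.86 and 78.4 ± 30.1 CPM (SD, n = 3 each). Slc4a1, the anion exchanger band 3 of mature red cells, was picked after its values were seen. It had 23.9, 1.46 and 0.673 CPM in KO, against 0, 2.46 and 1.47 CPM in control libraries. KO replicate 1 was thus alone at a high level and KO replicates 2 and 3 lay within the control range. The log2 fold change of Slc4a1 was 2.72 (SE 1.91).

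Late erythroid and reticulocyte genes had mostly positive log2 fold changes, and none passed the adjusted edgeR test. Of 8 tested, 7 were positive (52.15% of all genes), the median was 1.09, and 1 was higher at an unadjusted p under 0.05 (5.44% of all genes). That gene was Xpo7, an exportin needed for nuclear condensation in erythroblasts, with 55.9, 33.6 and 37.6 CPM in KO, against 13.5, 12.4 and 24.1 CPM in control libraries. The log2 fold change was 1.35 (SE 0.36, edgeR adjusted p = 0.281), and DESeq2 called 1 gene of the list higher (1.52% of all genes). Tfrc, the transferrin receptor that brings in iron, averaged 107 ± 44.4 CPM in KO libraries and 117 ± 64.2 CPM in controls. Bnip3l, which clears mitochondria from reticulocytes, averaged 201 ± 17.8 CPM in KO libraries and 159 ± 33.9 CPM in controls (SD, n = 3 each). Ube2o, a ubiquitin ligase of reticulocyte remodelling, averaged 10.5 ± 4.30 CPM in KO libraries and 5.39 ± 6.06 CPM in controls, and Tspan33 17.5 ± 5.10 and 14.5 ± 7.05 CPM.

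**Figure D3:**
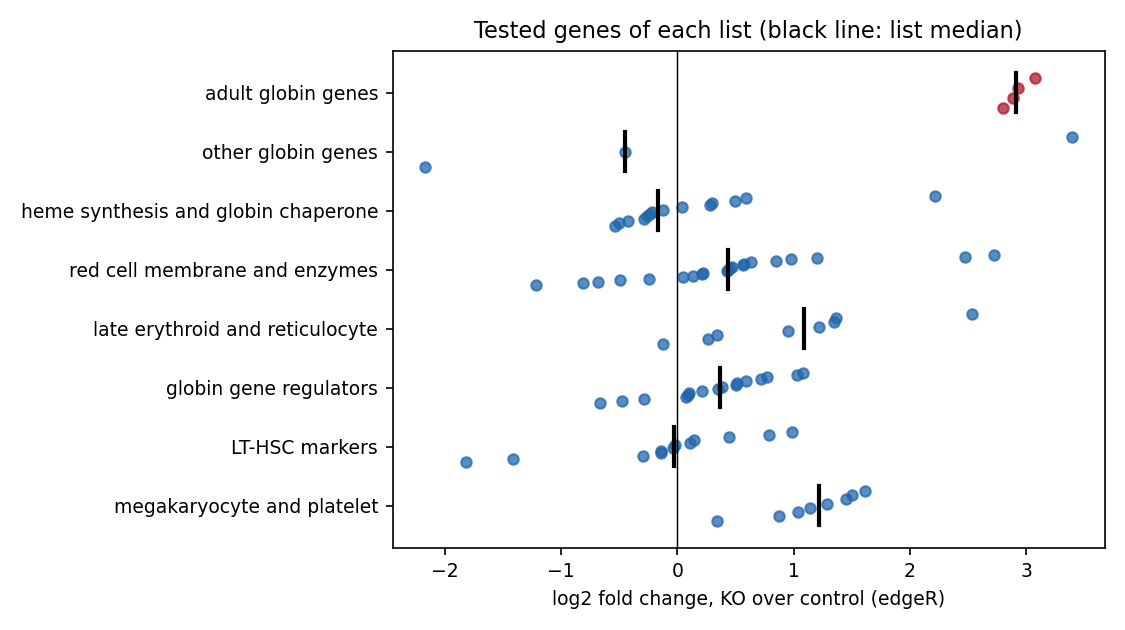
Log2 fold change of KO over control in edgeR for the tested genes of each list, with 1 point per gene and a black line at the list median. The 4 adult globin genes lie between 2.80 and 3.08, while the heme synthesis list centres on -0.17 and the red cell membrane and enzyme list on 0.44. The late erythroid list centres on 1.09 and the megakaryocyte and platelet list on 1.22. Other globin genes centre on -0.45, regulators on 0.37 and LT-HSC markers on -0.03.

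Globin counts were also set against the other erythroid transcripts of the same library, an alternative added after the data had been seen. For each Ahsp count there were 38.7, 33.7 and 53.0 adult globin counts in KO replicates 1, 2 and 3, against 1.06, 5.27 and 6.10 in control replicates 1, 2 and 3. The groups were further apart in this ratio than in the globin share itself, but the gap depended on the denominator. Per count of the late erythroid list there were 44.6, 22.7 and 21.4 globin counts in KO, against 1.04, 4.49 and 8.65 in control libraries. The lowest KO and highest control library were closer there than per Ahsp count. Per Klf1 count the values were 223, 131 and 97.8 in KO, against 1.85, 14.1 and 24.0 in control libraries. Summed over the heme synthesis, membrane and late erythroid lists, there were 3.22, 2.05 and 1.73 globin counts per erythroid count in KO, against 0.0340, 0.216 and 0.410 in control libraries. Car1 and Car2 made up between 48.5% and 54.0% of these erythroid counts in KO libraries and between 61.6% and 71.3% in controls. Without both there were 6.54, 3.99 and 3.76 globin counts per erythroid count in KO, against 0.119, 0.564 and 1.20 in control libraries. Among the genes and lists used in this way, only Alas2 gave values that overlapped between the groups. There were 420, 500 and 2054 globin counts per Alas2 count in KO, against 93.2 and 982 in control replicates 2 and 3. Control replicate 1 had no Alas2 count. Other scarce red cell genes were not used in this way, such as Slc4a1, with 1423, 88 and 42 counts in KO, against 0, 168 and 82 in control libraries. These ratios share the globin values that chose the genes and carry no test.

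**Figure D4:**
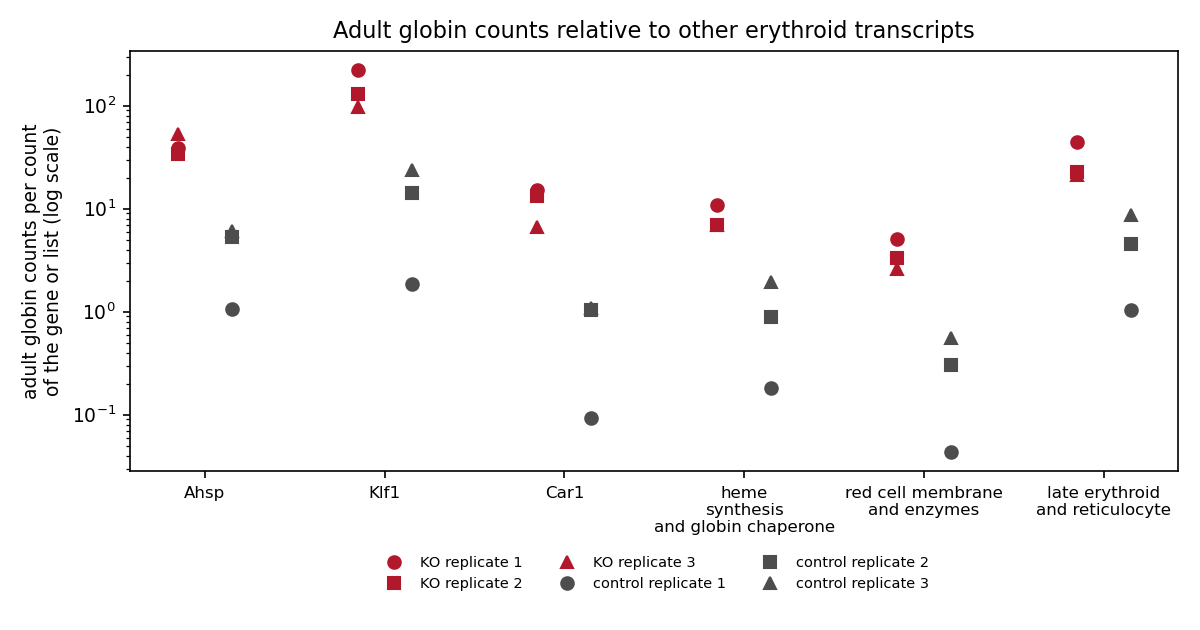
Adult globin counts per count of Ahsp, Klf1, Car1 and 3 erythroid lists, on a log axis with 1 point per library. The KO libraries lie above the control libraries in every column, from 33.7 to 53.0 against 1.06 to 6.10 for Ahsp. Alas2, whose values overlap between the groups, is not plotted.

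Regulators of the globin genes had mostly positive log2 fold changes, of which none passed the adjusted test. All 16 were tested, 13 were positive (52.15% of all genes), with a median of 0.37. Unadjusted p-values under 0.05 put 2 on the higher side (5.44% of all genes) and 0 on the lower (5.59%). None passed at an adjusted p under 0.05 in edgeR, and DESeq2 called 1 higher (1.52% of all genes). The 2 were cofactors: Zfpm1, the GATA1 partner FOG1, had 73.3, 56.4 and 85.8 CPM in KO, against 22.8, 33.7 and 45.7 CPM in control libraries, and Ldb1, which joins enhancers to globin promoters, had 62.4, 56.1 and 63.4 CPM, against 26.7, 37.2 and 46.4 CPM. Their log2 fold changes were 1.08 (SE 0.30, edgeR adjusted p = 0.304) and 0.72 (SE 0.25, adjusted p = 0.373).

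Klf1, the activator of adult beta-globin, had 110, 70.2 and 72.4 CPM in KO, against 153, 88.0 and 160 CPM in control libraries, with a log2 fold change of -0.67 (SE 0.29, edgeR adjusted p = 0.463). Nfe2, which acts at the beta-globin enhancer, averaged 217 ± 19.3 CPM in KO libraries and 302 ± 83.6 CPM in controls, and Gata2, the factor that precedes GATA1, 151 ± 38.0 and 100 ± 25.3 CPM (SD, n = 3 each). Bcl11a, a repressor of embryonic beta-type globins, averaged 186 ± 25.04 CPM in KO libraries and 146 ± 50.8 CPM in controls. Lmo2 averaged 598 ± 40.4 CPM in KO libraries and 558 ± 49.2 CPM in controls, Myb 272 ± 48.4 and 234 ± 25.6 CPM, and Ikzf1 115 ± 29.7 and 108 ± 42.4 CPM.

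The genes whose profile over the 6 libraries was most like that of the summed adult globins are on none of the erythroid lists. Among 11620 genes compared by Pearson correlation of log2 CPM, Zfp280c (r = 0.994), Dyrk1a (0.994), Senp1 (0.993), Rabl6 (0.992), Rprd2 (0.990), Fam126a (0.988), Dek (0.987) and C2cd2l (0.986) came first. Dyrk1a encodes a kinase, Senp1 a SUMO protease and Dek a chromatin protein. Over all libraries C2cd2l ranged 22.4-fold and the other 7 between 1.46-fold and 3.54-fold, against 88.6-fold for the globin share. Dyrk1a had 77.5, 69.0 and 70.5 CPM in KO, against 52.9, 60.03 and 65.8 CPM in control libraries, and Dek 384, 353 and 321 CPM, against 233, 265 and 297 CPM. With the group means taken out, r for these genes, which were picked for a high r, ran from 0.966 (Fam126a) to 0.990 (C2cd2l). With 6 libraries, 343 of the 11620 genes had r over 0.9 before that step. Those points share library depth and the group split, so the correlations only describe the profile.

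Markers of other cell types were set beside the globins by library. The summed neutrophil list (10 genes) was 120, 604 and 1176 CPM in KO, against 176, 224 and 12233 CPM in control libraries. Control replicate 3, with S100a8 at 4466 CPM, S100a9 at 3003 CPM and Camp at 1934 CPM, also held the most globin among the controls. KO replicate 1 held the most globin and had the lowest neutrophil sum of all libraries. Most of the low sums was Prtn3, which varied little, with 114, 163 and 94.1 CPM in KO, against 155, 165 and 131 CPM in control libraries. The megakaryocyte and platelet list (8 genes) was 1716, 2547 and 2214 CPM in KO, against 1063, 860 and 793 CPM in control libraries, so it did not overlap between the groups either. Its order differed from that of the globins, with KO replicate 1 the lowest KO library and control replicate 1 the highest control library. Its most abundant members were Pf4, Itga2b and Gp1bb. Of these 8 genes, 8 had a positive log2 fold change (52.15% of all genes) and 6 were higher at an unadjusted p under 0.05 (5.44% of all genes). In edgeR 0 passed at an adjusted p under 0.05, and DESeq2 called 5 higher (1.52% of all genes). Of 9 neutrophil genes tested, 0 passed at an unadjusted p under 0.05, and DESeq2 called 0 of the 4 for which it gave an adjusted p.

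Macrophage genes (9) summed to 28.7, 30.3 and 61.8 CPM in KO, against 32.3, 83.7 and 32.7 CPM in control libraries, and none of these genes was at 0 in all libraries. C1qb averaged 9.17 ± 0.910 CPM in KO libraries and 15.7 ± 4.97 CPM in controls, C1qa 5.68 ± 2.91 and 6.66 ± 6.18 CPM, and Cd68 6.50 ± 4.99 and 10.3 ± 6.65 CPM (SD, n = 3 each). Of the 9 genes, 3 had a positive log2 fold change, and unadjusted p-values under 0.05 put 1 on the higher side (5.44% of all genes) and 0 on the lower (5.59%). That gene, Mrc1, the mannose receptor, is named after its values were seen. It had 1.71, 1.20 and 10.1 CPM in KO, against 0.165, 0.147 and 0.0359 CPM in control libraries, with a log2 fold change of 5.20 (SE 1.34, edgeR adjusted p = 0.277), and was the only gene of the list that DESeq2 called. KO replicate 3, with the most Mrc1, had the least globin of the KO libraries. B cell genes (8) summed to 33.7 to 38.1 CPM in KO and 31.1 to 89.1 CPM in control libraries, nearly all of it Cd79b, and Igll1 was at 0 throughout. T cell genes (7) summed to 4.93 to 17.8 CPM in KO and 5.60 to 18.4 CPM in control libraries, with Cd8a and Cd8b1 at 0 throughout. The red cell membrane and enzyme list summed to 4813, 2745 and 2750 CPM in KO, against 6487, 4064 and 6926 CPM in control libraries, with 0 of 21 genes at 0 in all libraries. Car1 and Car2 made up 79.1% to 80.6% of that sum in KO and 86.9% to 91.4% in control libraries. Without both it was 952, 574 and 533 CPM in KO, against 559, 532 and 762 CPM in control libraries, and the groups overlapped. Of the 12 stem cell markers, unadjusted p-values under 0.05 put 1 higher and 2 lower (5.44% and 5.59% of all genes), 0 passed the adjusted test in edgeR, and DESeq2 called 1 lower (1.79% of all genes). Among the named ones, Kit averaged 320 ± 25.8 CPM in KO libraries and 185 ± 68.4 CPM in controls, and Ly6a 122.8 ± 72.9 and 327 ± 44.7 CPM. The part of other cells in the globin levels was not tested.

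**Figure D5:**
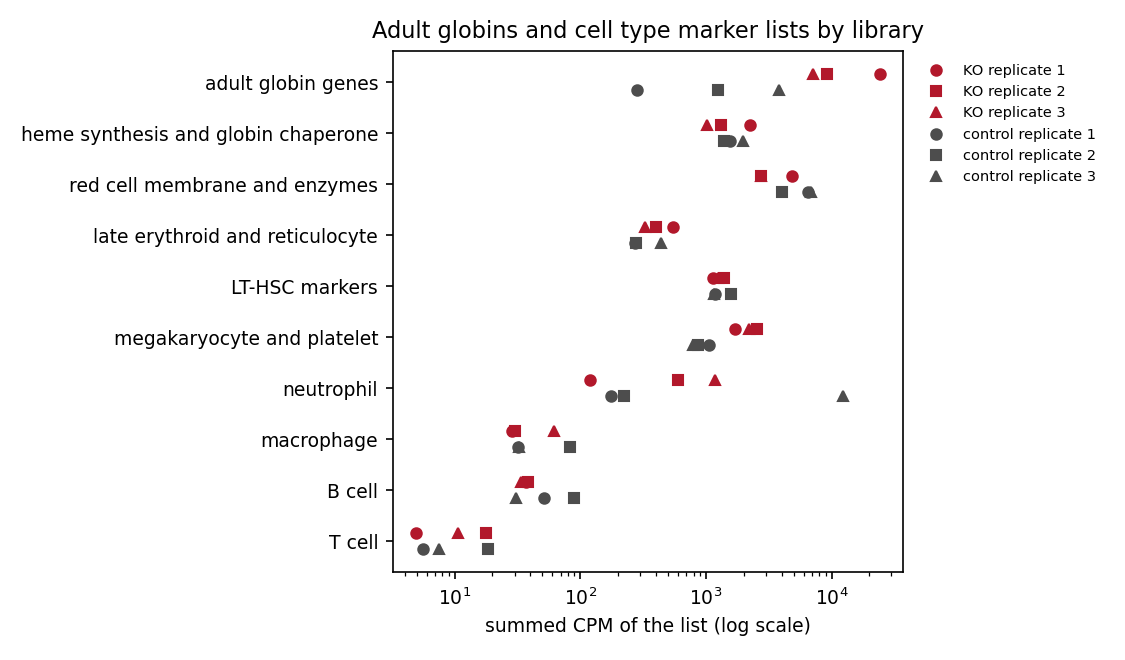
Summed CPM of the adult globins and of each marker list on a log axis, with 1 point per library. The globin row spreads from 282 CPM in control replicate 1 to 24427 CPM in KO replicate 1, while the erythroid lists beneath it spread over a few-fold.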

How the data were processed

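RNA from mouse LT-HSCs was extracted with TRIZOL and prepared with a TruSeq kit, per the labels' protocols, which give no strand. The authors deposited raw counts per gene, 1 table of 47561 rows per library. Per the submitters' processing notes, which give no roles, mm10, featureCounts 1.6.4 and HISAT2 2.1 are named, as are cutadapt 1.16.5, bcl2fastq 2.19 and DESeq2 2.11.40.6. Of the rows, 2046 carry assembler-type identifiers, so counts may rest on assembled models.

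Counts were tested in R 4.3.3 with edgeR 4.0.16 (filterByExpr, TMM, quasi-likelihood F test, Benjamini-Hochberg over 16022 genes). The steps were tested on simulated data. The SE of a log2 fold change is its size divided by the root of F. Balance measures used exact permutation tests, two-sided. A count of 0 was read as up to 3 counts per library. Lengths come from GENCODE M21 and promoters from RefSeq. No libraries agreed within sampling noise.

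Members, lists and tests were chosen with earlier results of these data known. Named genes were the up to 6 most abundant and the 3 with the smallest p of each erythroid list, the 3 most abundant of other lists, and the 8 most like the globins among genes of at least 1 CPM (log2 CPM, prior count 2; predicted and clone symbols left out). Alternatives were other scaling and filters, DESeq2 1.42.0, limma-voom (limma 3.58.1), a replicate block, each library left out and other denominators. Some genes that this rule picks are not reported here.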

Additional observations from a re-analysis of the deposited data

How the results depend on the processing

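The 4 globin log2 fold changes stayed positive in all 13 alternatives each, between 1.90 (Hba-a1 without KO replicate 1) and 4.4035 (Hba-a2 without control replicate 3). These genes were chosen by this contrast, and every KO library lay above every control library. Their sign could therefore hardly change, and its stability is no evidence of a difference. Globin shares differed by 1.20 percentage points, KO minus control, by 1.20 over filtered genes, by 1.26 over nuclear genes, and by 0.665 to 1.51 with 1 library left out. The alpha to beta difference changed sign with the libraries used, from -0.25 to 0.27 (log2) with 1 left out, and was -0.0039 with all alpha-like and beta-like genes. With 1 library left out the Hba-a2 share differed by 0.739 to 3.84 points and the Hbb-bt share by -10.5 to -3.57 points (-3.57 without control replicate 1). Against 0 genes higher and 0 lower in edgeR, DESeq2 called 244 higher and 286 lower, a filter of 1 CPM in 3 libraries gave 1 lower (Ugt1a7c), and leaving out 1 library gave 0 to 1 higher and 0 lower, the 1 (Gm20716) without control replicate 1. The causes were not tested.

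Libraries with the same replicate number shared little in their deviations from the group means (correlations 0.038, 0.016 and 0.033). Whether they were prepared together cannot be told from this. With the replicate block edgeR called 0 higher and 0 lower, and paired permutation p-values were 1, 0.5 and 0.25 for the balance, the Hba-a2 share (2.60 points) and the Hbb-bt share (-7.22 points), where 3 pairs cannot go below 0.25. The balance difference was 0.0096 there and per coding length, and 0.0068 per transcript length.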
